A study of Arabidopsis thaliana with 305 samples.

Results

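The comparison set leaves of the Arabidopsis thaliana accession Col-0 taken 4 h after infiltration with bacteria that carried an empty vector (EV) against Col-0 leaves taken 0.5 h after the same infiltration. An empty vector adds no effector gene to the bacteria. The comparison used the 12 messenger RNA libraries that the labels place in these groups, 6 at 4 h and 6 at 0.5 h, out of 305 libraries in the series. Each replicate number stands on 2 libraries, whose counts were summed, which left 3 replicates at each time. The 6 Col-0 libraries taken without infiltration (T0, again 3 replicates) told which genes had already responded at 0.5 h. A further 36 EV libraries came from 3 mutants, nrg1.1 nrg1.2, adr1 triple and also helperless (written herlperless in some labels), at 4 h and 0.5 h, with 3 replicates per genotype and time. Leaves of the same mutants taken without infiltration (T0, 3 replicates per genotype) told which genes had responded early in the mutants. These mutants lack the helper NLRs of the NRG1 family, of the ADR1 family, or of both. All leaf discs came from plants 6 weeks old, raised in days of 8 h light and 16 h dark. The series design names the infiltrated strain Pf0, whereas the protocol in the labels names only Pseudomonas syringae strains, so the strain, and whether it delivers effectors of its own, could not be checked. No leaves infiltrated with buffer alone were analysed here. The labels give no clock time, so the time since infiltration, the infiltration itself and the time of day cannot be told apart. They do not say whether replicates came from separate plants. The p-values therefore measure a spread between replicates, estimated over all 52 groups of the series, which may be technical.

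Plant cells sense conserved microbial molecules, such as flagellin or chitin, through receptor kinases at the cell surface, and the response is called pattern-triggered immunity. Calcium influx, reactive oxygen and MAP kinase cascades come first, and WRKY, ERF and other transcription factors are made within minutes. Later output includes camalexin (the indole phytoalexin of Arabidopsis), phenylpropanoids, secreted defence proteins and the signals salicylic acid, jasmonate and ethylene. Many of the first genes induced encode negative regulators of the same signalling.

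Total counts per replicate were 11456782 to 13778706 at T0, 9642031 to 16467143 at 0.5 h and 8219818 to 13728297 at 4 h. The 10 most abundant genes held 14.1% to 14.5% of the counts at T0, 8.86% to 9.71% at 0.5 h and 5.47% to 6.17% at 4 h. ADR1-L1 counts, divided by those of ADR1-L2, separate genotypes with an adr1 allele from the others, and gave 1.57 to 3.6 in the 12 libraries, none of which went against its label. Levels below are CPM, the counts of a gene scaled to a fixed library size, after trimmed means of M values (TMM), a normalisation that takes most genes as unchanged. They are not adjusted for gene length, so they compare a gene between samples and not with another gene. In leaf discs, fewer cells of a type and less RNA per cell cannot be told apart.

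Between 0.5 h and 4 h more genes of early signalling and of rapid stress transcription factors fell than rose, most genes of phenylpropanoid synthesis and of endoplasmic reticulum chaperones rose, and nearly all genes of photosynthesis fell. Of 19687 genes tested, 3347 (17%) rose and 4842 (24.6%) fell at 4 h against 0.5 h by edgeR's quasi-likelihood test, where a call needed a Benjamini-Hochberg adjusted p below 0.05 and a log2 fold change of at least 1 in size. The 3 replicates at 4 h and the 3 at 0.5 h did not overlap for 12856 genes (65.3%). The balance of rises and falls depended on the scaling. TMM factors were 1.170 to 1.210 at 4 h and 0.756 to 0.807 at 0.5 h, a mean difference of 0.60 in log2, and scaling by library totals alone gave 6221 rises and 2960 falls with the median of all genes at 0.52, against -0.07 with TMM. Of the 8189 genes called with TMM, 6307 were called on library totals as well and 0 in the opposite direction. Changes below are relative to the TMM scale. Calls in the gene lists below are to be read beside the shares of all genes, 17% rising and 24.6% falling.

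The T0 leaves sorted the early genes by what happened later. At 0.5 h against T0, 2748 genes (14%) had risen and 1693 (8.6%) had fallen. At 4 h against T0 the counts were 4544 (23.1%) and 5068 (25.7%). The early balance also depended on the scaling, since TMM factors were 1.149 to 1.203 at T0 and 0.756 to 0.807 at 0.5 h. These 3 comparisons share samples in pairs, so the classes describe one time course and are not independent results. Of the genes that rose early, 657 (23.9%) fell again by 4 h and were no longer called above T0, and these are called fully back. Another 556 (20.2%) fell again but were still called above T0, and are called partly back. A further 1076 (39.2%) stayed, that is, they were called above T0 at 4 h and not called different from 0.5 h. Only 254 (9.24%) rose further, and 205 (7.46%) could not be placed. As shares of all tested genes these are 3.34%, 2.82%, 5.47%, 1.29% and 1.04%. The fully back class is not shown to equal T0, and 103 of its genes were called below T0 at 4 h. Likewise, the stayed class is not shown to equal 0.5 h.

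Genes that appeared only later outnumbered those that went back. At 4 h, 1902 genes (9.66% of those tested) were called above both T0 and 0.5 h without an early call, and 3138 (15.9%) were called below both. Of the genes that fell early, 492 (29.1%) were called up again by 4 h and no longer below T0, of which 97 were called above T0. Another 743 (43.9%) stayed low, 27 (1.59%) came partly back, 133 (7.86%) fell further and 298 could not be placed. As shares of all tested genes these are 2.5%, 3.77%, 0.137%, 0.676% and 1.51%. Of these classes, the one that fell further moved most on leaving out a replicate, with 51, 53 and 47 genes when 0.5 h replicate 1, 2 or 3 was left out. On library totals alone the early rises split into 364 fully back, 362 partly back, 891 stayed and 294 further, with 2258 new rises. The early falls then split into 2029 fully back, 80 partly back, 1661 stayed and 254 further, with 1871 new falls. On that scale early falls outnumbered early rises, the reverse of the balance with TMM.

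**Figure D1:**
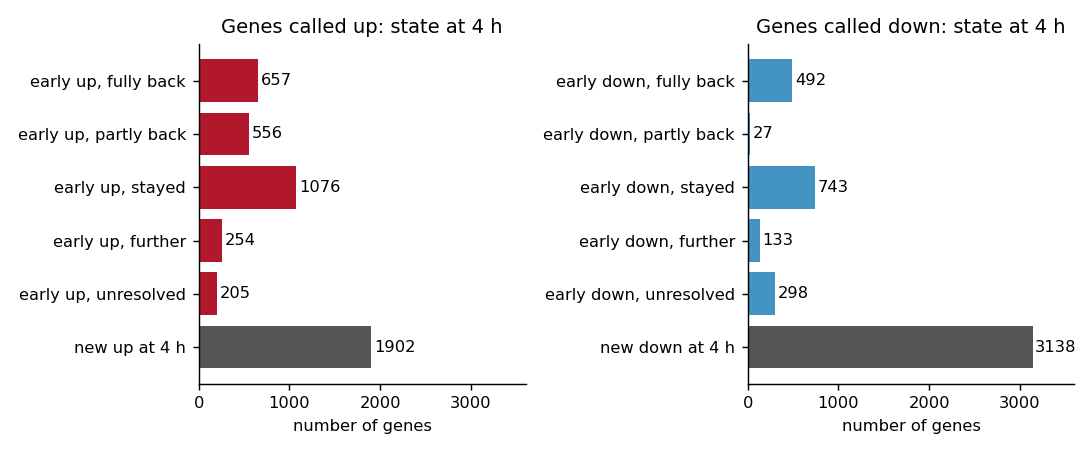
Number of genes (horizontal axis) in each class of time course in Col-0 under EV bacteria, for genes that rose or fell at 0.5 h against T0 and for genes first called at 4 h. New falls (3138) and new rises (1902) are the largest classes, and among early rises those that stayed (1076) outnumber those fully back (657).

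The early genes were also taken from the mutants, whose T0 and 0.5 h leaves share no sample with Col-0. Of 3003 genes that rose early in the mean of the 3 mutants, 1234 (41.1%) fell in Col-0 at 4 h against 0.5 h and 371 (12.4%) rose. In Col-0's own early rises 1213 of 2748 (44.1%) fell. Of 1792 early falls in the mutants, 432 (24.1%) rose in Col-0 at 4 h against 0.5 h and 254 (14.2%) fell further.

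Among genes that reached 20 CPM, the largest rises started from near silence and included a small gene cluster on chromosome 4. EARLI1, a secreted lipid-transfer-like protein, lies at chr4:7406065-7406994 (TAIR10.1, minus strand). It had 1.23, 7.13 and 1.65 CPM at T0, 0.423, 0.482 and 1.46 CPM at 0.5 h, and 1730, 696 and 879 CPM at 4 h. Its neighbours AT4G12490 and AT4G12500, which RefSeq lists as bifunctional inhibitor or lipid-transfer proteins, and AZI1, a relative known for its part in systemic priming, rose with it. The log2 fold changes were 10.51 ± 1.02 (SE, adjusted p = 2.9e-15) for EARLI1 and 10.04 ± 1.13 (1.6e-12) for AT4G12490. They were 9.85 ± 1.02 (6.1e-14) for AT4G12500 and 8.29 ± 0.88 (1.6e-13) for AZI1. These genes are close copies of each other, so reads may be split among them. FRK1, the flagellin-induced receptor-like kinase used as a marker of sustained pattern-triggered immunity, had 3.12, 10.6 and 5.51 CPM at T0 and 1.9, 0.804 and 3.05 CPM at 0.5 h, and then 2610, 1360 and 1230 CPM at 4 h. FRK1 was thus lower at 0.5 h than at T0, by -1.78 on the log2 scale (edgeR, adjusted p = 0.0398). Its rise of 9.86 ± 0.91 (adjusted p = 2.7e-16) came after 0.5 h. By the class rule FRK1 therefore counts as an early fall that went fully back and not as a new rise. Without 0.5 h replicate 3 the rises were 11.38 for EARLI1, 10.53 for AT4G12500 and 10.52 for FRK1. BIA1, an acyltransferase known to inactivate brassinosteroids, went with them, at 1154 counts over the 3 replicates at 4 h and 1 count at 0.5 h.

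At the other end were genes that had surged at 0.5 h and were gone by 4 h. NAC090, a NAC transcription factor, had 0.653, 0.184 and 0.0716 CPM at T0, then 35, 100 and 48.1 CPM at 0.5 h, and 0.48, 0.181 and 0.728 CPM at 4 h. The T0 and 4 h replicates overlapped, and every 0.5 h replicate stood far above both. It fell by 7.12 ± 0.91 on the log2 scale between 0.5 h and 4 h (edgeR, adjusted p = 1.2e-10). AT1G61460, listed as a G-type lectin receptor kinase, and BBX32, a B-box protein that acts in light signalling, had changes of -6.92 ± 0.63 (adjusted p = 2.3e-16) and -6.71 ± 0.80 (1.6e-11), and both were called below T0 at 4 h. The largest fall among genes that reached 20 CPM was in GASA6, a gibberellin-regulated peptide gene with no early change, at 0, 0.301 and 0.312 CPM at 4 h against 19, 83.5 and 52.1 CPM at 0.5 h (log2 -7.90 ± 1.74, adjusted p = 6.3e-05). Its T0 replicates, at 19.5, 115 and 28.2 CPM, overlapped those at 0.5 h. Without 0.5 h replicate 2 the falls were -6.41 for NAC090, -6.25 for AT1G61460, -5.84 for BBX32 and -7.22 for GASA6, and without 4 h replicate 1 it was -7.25 for GASA6.

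The bases ahead of 3 of the genes with the largest changes are printed because short sequences found there are compared between the classes at the end. AT4G04480 (an F-box protein gene, chr4:2229399-2229648, plus strand) and AT2G24130 (a leucine-rich repeat receptor kinase gene, chr2:10257857-10258106, plus strand) went fully back. GASA6 (chr1:28052780-28053029, plus strand) is a new fall. Each run holds the 250 bases before the annotated gene start, written 5′ to 3′ on the strand of the gene, from RefSeq TAIR10.1. Capitals mark matches on either strand to the sequences searched. These were the rapid stress response core CGCGTT, the W-box as TTGACC or as TTGACT, the ethylene response core GCCGCC, the G-box CACGTG, the evening element AAAATATCT, the ribosome gene element AAACCCTA, the I-box core GATAAG and the bZIP core TGACG, which can share bases with the G-box and with the rapid stress response core.
AT4G04480: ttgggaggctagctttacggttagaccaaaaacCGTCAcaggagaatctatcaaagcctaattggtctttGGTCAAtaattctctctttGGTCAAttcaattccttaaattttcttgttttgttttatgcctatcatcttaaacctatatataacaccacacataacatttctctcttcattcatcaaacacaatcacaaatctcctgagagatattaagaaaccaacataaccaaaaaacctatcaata
AT2G24130: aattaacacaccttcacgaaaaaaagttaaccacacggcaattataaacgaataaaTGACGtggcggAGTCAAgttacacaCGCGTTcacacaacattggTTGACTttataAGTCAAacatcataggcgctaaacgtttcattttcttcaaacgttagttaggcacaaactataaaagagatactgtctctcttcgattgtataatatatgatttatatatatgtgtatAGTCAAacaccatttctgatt
GASA6: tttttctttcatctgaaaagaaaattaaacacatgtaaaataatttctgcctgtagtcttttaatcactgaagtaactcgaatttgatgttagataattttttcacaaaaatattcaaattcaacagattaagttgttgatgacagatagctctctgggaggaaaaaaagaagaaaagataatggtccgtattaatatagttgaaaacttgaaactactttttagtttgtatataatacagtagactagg
AT2G24130 holds CGCGTT at -169 to -164 from the gene start and 4 matches to TTGACT, while AT4G04480 holds TTGACC at -180 to -175 and at -161 to -156 on the opposite strand. GASA6 holds none of these sequences, and neither do the same windows of AT5G38700, AT4G12490 and BIA1. AT2G24130 had 0, 0.0615 and 0.215 CPM at T0, 10.8, 58.3 and 26 CPM at 0.5 h, and 0.24, 0.421 and 0.728 CPM at 4 h, so every 0.5 h replicate lay above all others.

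Among cell-surface receptors and the kinases just below them, most genes rose early and many of these then fell again. Of 38 such genes, 31 had risen at 0.5 h and 0 had fallen. At 4 h against 0.5 h, 18 fell and 2 rose, with a median log2 fold change of -1.10 against -0.07 for all genes. Still, 30 of the 38 were above T0 at 4 h, because 15 went partly back, 12 stayed and only 3 went fully back. CPK28, a calcium-dependent kinase that limits the receptor-associated kinase BIK1, had 39.8, 14.1 and 33.7 CPM at T0, 1160, 1610 and 1210 CPM at 0.5 h, and 59.9, 63.4 and 88.9 CPM at 4 h. PUB12, a ubiquitin ligase that removes the flagellin receptor FLS2, had 7.62, 5.29 and 7.88 CPM at T0, 61.2, 116 and 90.4 CPM at 0.5 h, and 7.91, 4.88 and 4.06 CPM at 4 h. Both genes encode brakes on receptor signalling, and in PUB12 the T0 and 4 h replicates overlapped. The changes between 0.5 h and 4 h were -4.23 ± 0.41 for CPK28 (edgeR, adjusted p = 2.9e-15) and -3.98 ± 0.42 for PUB12 (7.9e-14). The chitin receptor LYK5 (-3.67 ± 0.57, adjusted p = 5.2e-08) and the MAP kinase MPK3 (-3.32 ± 0.42, 1.4e-10) went partly back. MPK6, which acts beside MPK3, instead appeared as a new rise with 111, 123 and 121 CPM at 4 h against 53.9, 48.9 and 59.1 CPM at 0.5 h, as did PBL1, a kinase close to BIK1, at 108, 80 and 68.1 CPM against 14.7, 12.3 and 13.6 CPM.

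Most rapid stress transcription factors turned back without reaching T0. Of 31 tested, 25 had risen at 0.5 h by a median over the list of 4.36 on the log2 scale, and at 4 h against 0.5 h 19 fell and 6 rose, with a median of -1.61. Of the 25, 17 went partly back, 2 fully back, 3 stayed, 1 rose further and 2 could not be placed. ERF13, an ethylene response factor, had 2.83, 0.738 and 1.36 CPM at T0, 237, 226 and 145 CPM at 0.5 h, and 9.27, 1.63 and 6.14 CPM at 4 h. RRTF1, a redox-responsive factor also called ERF109, fell by 5.02 ± 0.86 on the log2 scale between 0.5 h and 4 h (edgeR, adjusted p = 6.2e-07), and ERF6, a target of MPK3 and MPK6, fell by 4.25 ± 0.67 (6.8e-08), or -3.64 without 0.5 h replicate 2. The late members were other relatives. RAP2.6L had 78.1, 97.8 and 97.3 CPM at 4 h against 0.528, 0.0804 and 0.928 CPM at 0.5 h, and RAP2.6 had 349, 311 and 263 CPM against 34, 9.48 and 37.6 CPM. DREB19, with 99 counts at 4 h and 0 at 0.5 h, was at least 26.1-fold higher at 4 h when 0 is set to 3 counts over the group.

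Touch and calmodulin-like genes also turned back for the most part. Of 25, 17 rose early, and at 4 h against 0.5 h 14 fell and 3 rose (median -1.58). Of the 17, 12 went partly back, 4 stayed and 1 went fully back. TCH4, a cell wall xyloglucan enzyme first found as touch-induced, had 31, 40.9 and 20.9 CPM at T0, 3170, 3490 and 1930 CPM at 0.5 h, and 73.7, 98.8 and 140 CPM at 4 h. The 4 h replicates all lay above the T0 replicates and far below those at 0.5 h. CML38, a calmodulin-like protein, fell by 3.24 ± 0.52 on the log2 scale (edgeR, adjusted p = 1.4e-07) and was also still above T0. CAM1, a calmodulin gene proper, went the other way, at 173, 141 and 143 CPM at 4 h against 14.9, 8.6 and 13.1 CPM at 0.5 h.

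NLR genes, which encode the intracellular receptors for effectors and their helpers, rose early and then mostly went back. Of 27 tested, 19 had risen at 0.5 h and 0 had fallen, and at 4 h against 0.5 h 15 fell and 0 rose, with a median of -1.27. Of these 19 genes, 11 went fully back, 4 partly, 2 stayed and 2 could not be placed. NRG1.1, the helper NLR, had 27.6, 26.2 and 24.7 CPM at T0, 168, 264 and 195 CPM at 0.5 h, and 24.5, 29.6 and 31.5 CPM at 4 h. It fell by 2.87 ± 0.27 on the log2 scale (edgeR, adjusted p = 1.1e-15), and its 4 h replicates overlapped those of T0. ADR1-L2, a helper of the other family, had 44.8, 29.1 and 35.4 CPM at T0, 183, 190 and 115 CPM at 0.5 h, and 71.9, 51.8 and 78.3 CPM at 4 h, a fall of 1.27 ± 0.40 (adjusted p = 0.00421). AT3G04210, annotated as a TIR-NBS protein, went below T0, with 139, 140 and 124 CPM at T0, 870, 1220 and 756 CPM at 0.5 h, and 51.5, 38.6 and 42.2 CPM at 4 h (4 h against 0.5 h, log2 -4.43 ± 0.47, adjusted p = 1.6e-13). NLR genes form families of similar sequence, so some reads may be shared among them.

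Most jasmonate genes rose early and then took different courses. Of 42 genes tested, 27 rose and 2 fell at 0.5 h. At 4 h against 0.5 h 14 fell (33.3%) and 5 rose (11.9%), against 24.6% and 17% of all genes. The median was -0.37, or 0.22 on library totals alone. Of the 27, 4 went fully back, 10 partly back, 11 stayed and 2 rose further, and another 3 were new rises. The 13-lipoxygenase LOX4, which starts jasmonate synthesis, had 31.6, 6.64 and 16.5 CPM at T0, 3520, 4400 and 3780 CPM at 0.5 h, and 144, 92.6 and 136 CPM at 4 h. Its relative LOX3 fell by 3.14 ± 0.55 on the log2 scale (edgeR, adjusted p = 1.1e-06), and the repressors JAZ7 and JAZ8 fell by 4.61 ± 0.68 (1.0e-08) and 3.04 ± 0.55 (1.7e-06). JAZ7 was fully back, at 3.76, 1.75 and 3.33 CPM at 4 h, and JAZ8 only partly. ANAC019, a NAC factor that acts downstream of jasmonate and coronatine, rose early and rose further, with 2.47, 3.01 and 0.645 CPM at T0, 13.9, 8.84 and 14.8 CPM at 0.5 h, and 404, 306 and 288 CPM at 4 h. ST2A, a sulfotransferase that acts on hydroxyjasmonate, and JRG21, an oxygenase that hydroxylates jasmonate, were new rises of 3.99 ± 0.77 (adjusted p = 6.1e-06) and 4.18 ± 0.78 (3.3e-06).

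**Figure D2:**
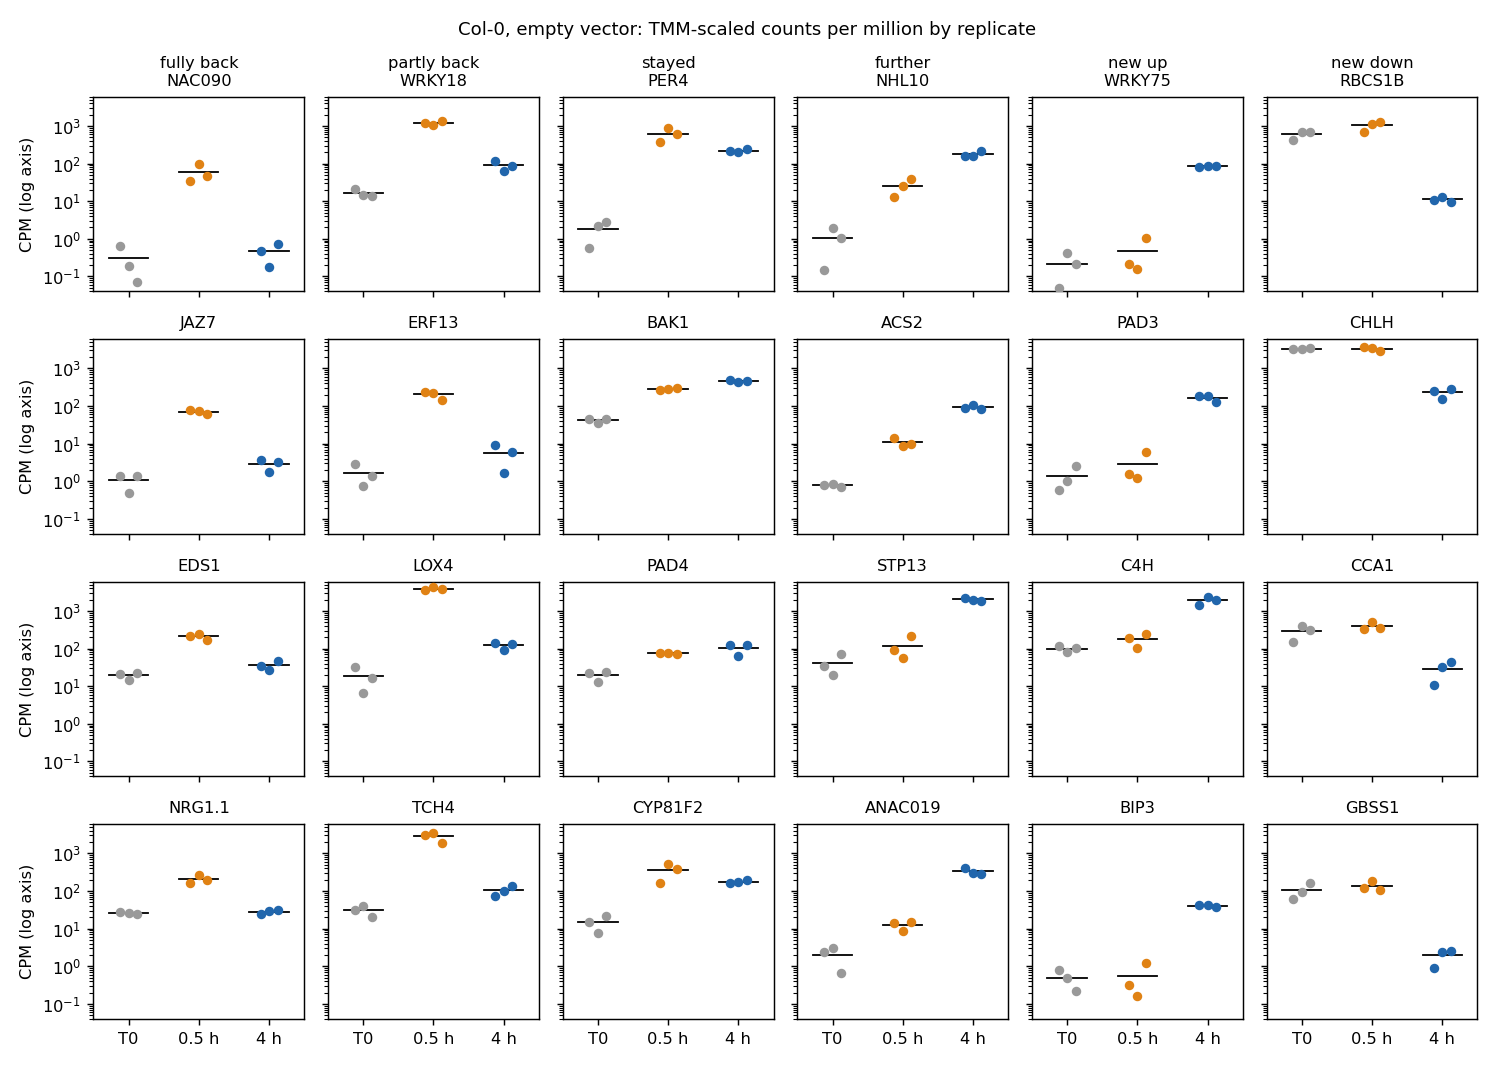
CPM of 24 genes in each replicate at T0, 0.5 h and 4 h after infiltration (log axis, a point per replicate, the horizontal line is the mean of 3, and a value of 0 lies at the bottom edge), arranged by class from early rises that went fully back to new falls. NRG1.1 returns to 24.5 to 31.5 CPM, and TCH4 stops between its T0 level and its peak. WRKY75 and RBCS1B have no call at 0.5 h against T0 and are called at 4 h.

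The early rises classed as stayed, whose 4 h level was not called different from 0.5 h, included a peroxidase, a regulator and an enzyme of indole metabolism. PER4, a class III peroxidase, had 0.58, 2.15 and 2.72 CPM at T0, 363, 870 and 611 CPM at 0.5 h, and 222, 201 and 237 CPM at 4 h. Its change of -1.48 ± 0.70 between 0.5 h and 4 h missed the threshold (edgeR, adjusted p = 0.0642) and became a called fall of -1.49 when the fit held only the Col-0 groups (adjusted p = 0.0124) and of -1.37 with libraries unsummed (0.013). PAD4, a partner of EDS1 in salicylic acid signalling, had 22.1, 12.9 and 24 CPM at T0, 78.3, 78 and 69.6 CPM at 0.5 h, and 127, 63.2 and 121 CPM at 4 h. Its change of 0.46 ± 0.50 did not pass (adjusted p = 0.44), and on library totals alone it was a called rise of 1.05. EDS1 itself did not hold, with 21.2, 14.6 and 22.1 CPM at T0, 215, 249 and 172 CPM at 0.5 h, and 33.4, 27.4 and 45.6 CPM at 4 h (fall of 2.58 ± 0.50, adjusted p = 6.5e-06). CYP81F2, which modifies indole glucosinolates for defence, had 166, 170 and 199 CPM at 4 h and 161, 531 and 392 CPM at 0.5 h, so its replicates overlapped.

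A smaller class kept climbing through both intervals. NHL10, a standard marker gene of flagellin responses, had 0.145, 1.97 and 1.07 CPM at T0, 13.1, 24.9 and 38.8 CPM at 0.5 h, and 156, 160 and 221 CPM at 4 h. ACS2, an enzyme of ethylene synthesis that MPK3 and MPK6 stabilise, had 0.798, 0.861 and 0.716 CPM at T0, 13.8, 8.68 and 9.94 CPM at 0.5 h, and 88.3, 109 and 83.5 CPM at 4 h. STP13, a hexose importer of the plasma membrane, had 34.9, 19.7 and 72.3 CPM at T0, 89.5, 54.9 and 212 CPM at 0.5 h, and 2170, 1990 and 1890 CPM at 4 h. For these 3 genes no replicate at 4 h overlapped one at 0.5 h, and the log2 fold changes were 2.81 ± 0.71 (edgeR, adjusted p = 4.5e-04), 3.11 ± 0.54 (6.2e-07) and 4.09 ± 0.62 (2.8e-08). MAPKKK19, a MAP kinase kinase kinase, and AT5G64120, a secreted peroxidase by its annotation, rose further by 2.15 ± 0.60 (0.00161) and 1.89 ± 0.53 (0.00144). Without 0.5 h replicate 3 the rises were 3.41 for NHL10, 4.99 for STP13 and 3.17 for MAPKKK19.

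WRKY factors fell into an early and a late set. Of 32 tested, 19 had risen at 0.5 h and 29 were above T0 at 4 h, with medians of 3.07 and 4.12 on the log2 scale. At 4 h against 0.5 h 13 rose (40.6%) and 8 fell (25%), against 17% and 24.6% of all genes. The 8 that fell all went partly back, and another 8 stayed. WRKY18, WRKY40 and WRKY33, which act in flagellin responses and camalexin control, were in the first set. WRKY18 had 21.7, 14.4 and 13.5 CPM at T0, 1220, 1040 and 1340 CPM at 0.5 h, and 118, 63.9 and 85.3 CPM at 4 h. WRKY40 and WRKY33 fell by 2.44 ± 0.47 (edgeR, adjusted p = 6.1e-06) and 1.79 ± 0.43 (2.3e-04) between 0.5 h and 4 h. The 10 new members include WRKY75, a regulator of senescence and of phosphate starvation, WRKY8 and WRKY72. WRKY75 had 0, 0.43 and 0.215 CPM at T0, 0.211, 0.161 and 1.06 CPM at 0.5 h, and 81.1, 84.6 and 88.7 CPM at 4 h. Its log2 fold change was 7.60 ± 0.77 (2.1e-14), against 6.76 ± 0.73 (3.3e-13) for WRKY8 and 6.50 ± 0.90 (1.8e-09) for WRKY72. These became 8.94 for WRKY75 without 0.5 h replicate 3, 7.57 for WRKY8 without 0.5 h replicate 1 and 5.76 for WRKY72 without 4 h replicate 1.

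Genes of tryptophan, camalexin and indole glucosinolate metabolism were partly early and partly late. Of 25, 14 had risen at 0.5 h, and at 4 h against 0.5 h 8 rose and 4 fell (median 0.77). Of the 14, 8 stayed and 3 rose further, and another 4 were new rises, PAD3, CYP71A12 and MYB122 among them. PAD3 (CYP71B15), which makes camalexin, had 0.58, 1.05 and 2.51 CPM at T0, 1.59, 1.21 and 5.83 CPM at 0.5 h, and 189, 180 and 127 CPM at 4 h. CYP71A12, an enzyme earlier in the pathway, rose by 6.81 ± 0.82 on the log2 scale (edgeR, adjusted p = 1.8e-11), and PAD3 by 5.89 ± 0.86 (9.2e-09), or 7.07 without 0.5 h replicate 3. MYB122, a regulator of the indole pathway, had 325 counts at 4 h and 0 at both 0.5 h and T0, at least 84.6-fold higher than at 0.5 h when 0 is set to 3 counts over the group. MYB34, another regulator of indole glucosinolates, fell instead, to 3.76, 3.13 and 2.29 CPM at 4 h against 30.8, 20.8 and 18 CPM at 0.5 h, and CYP79B3, which supplies indole-3-acetaldoxime, went fully back (-1.76 ± 0.44, adjusted p = 4.5e-04).

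Most shikimate and phenylpropanoid genes rose after 0.5 h. Of 30 tested, 5 had risen at 0.5 h, and at 4 h against 0.5 h 18 rose and 4 fell, with a median of 1.91 and 13 new rises. C4H, the second enzyme of the general pathway, had 116, 79.2 and 104 CPM at T0, 190, 104 and 240 CPM at 0.5 h, and 1470, 2340 and 2000 CPM at 4 h. CAD5, a cinnamyl alcohol dehydrogenase of lignin synthesis, rose by 4.43 ± 0.58 (edgeR, adjusted p = 3.4e-10), and ELI3-2, of the same family and with a close copy beside it, by 8.67 ± 1.06 (2.8e-11), which became 5.05 and 9.57 without 0.5 h replicate 1. The 4 genes that fell were TT4 (chalcone synthase), F3H and TT7 of flavonoid synthesis, and PAL3, an isoform of the entry enzyme. TT5, the chalcone isomerase of flavonoid synthesis, rose instead (1.57 ± 0.48, adjusted p = 0.00393), and FLS1 and DFR of the same branch did not pass the test. TT4 had 0.0799, 0.361 and 0.624 CPM at 4 h against 13.5, 15.3 and 15.6 CPM at 0.5 h. Glutathione transferases, which conjugate toxic compounds, gave 15 rises and 2 falls among 25 at 4 h against 0.5 h and a median of 2.36. At 0.5 h 8 had already risen, of which 4 stayed and 4 rose further, and another 8 were new rises. GSTU4, one of those that rose further, had 187, 297 and 244 CPM at 4 h, against 10.8, 6.59 and 25.7 CPM at 0.5 h.

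Genes of the endoplasmic reticulum, which folds secreted proteins, rose almost as a block after 0.5 h. Of 29 tested, 6 had risen at 0.5 h, 20 rose and 2 fell at 4 h against 0.5 h (median 2.21), and 26 were above T0 at 4 h. The chaperone BIP3 had 0.798, 0.492 and 0.215 CPM at T0, 0.317, 0.161 and 1.19 CPM at 0.5 h, and 41.5, 41.7 and 38.2 CPM at 4 h. The disulfide isomerase genes PDIL1-1 and PDIL2-2 rose by 5.02 ± 0.49 (edgeR, adjusted p = 4.6e-15) and 5.34 ± 0.46 (1.6e-17). The 2 that fell were early genes that went partly back, ERO1, which oxidises the isomerases, and BZIP60, the transcription factor of the unfolded protein response. BZIP60 had 34.4, 26.7 and 40.6 CPM at T0, 447, 913 and 668 CPM at 0.5 h, and 180, 159 and 210 CPM at 4 h. Cytosolic heat shock genes were less uniform, with 8 of 25 rising and 2 falling at 4 h against 0.5 h. The spread was wide. HSP90.1 had 275, 80.1 and 98 CPM at 4 h against 5.5, 4.9 and 23.6 CPM at 0.5 h, and HSFA2, the heat shock factor behind many of them, 52, 6.92 and 10.1 CPM against 0.74, 0.402 and 2.92 CPM. Their log2 fold changes of 3.75 and 4.19 became 3.08 and 2.84 without 4 h replicate 1, and 5.04 and 5.52 without 0.5 h replicate 3. BIP3 rose by 6.31, or 7.57 without 0.5 h replicate 3.

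The markers of sustained pattern-triggered immunity and the salicylic acid list mixed early and late genes. Of 26 markers, 20 had risen at 0.5 h and 25 were above T0 at 4 h. Between the times 9 rose and 7 fell (median -0.11, or 0.49 on library totals alone). These are 34.6% and 26.9%, against 17% and 24.6% of all genes. PEN1, a syntaxin of secretion at attack sites, fell by 1.84 ± 0.36 (edgeR, adjusted p = 8.3e-06), and PHI-1, a phosphate-induced gene, by 4.34 ± 0.74 (5.1e-07), both from the early peak and both still above T0. Among 36 genes of salicylic acid and N-hydroxypipecolic acid, 11 rose (30.6%) and 6 fell (16.7%) at 4 h against 0.5 h. PBS3, an enzyme of salicylic acid synthesis, had 135, 29.7 and 116 CPM at 4 h against 7.19, 4.26 and 3.71 CPM at 0.5 h, and UGT76B1, which glucosylates N-hydroxypipecolic and salicylic acid, had 214, 251 and 206 CPM against 0.528, 0.321 and 1.99 CPM. Every 4 h replicate of both genes lay above every 0.5 h replicate. ICS1, the isochorismate synthase ahead of PBS3, had 80.8, 23.4 and 103 CPM at 4 h against 35.9, 30.5 and 26.6 CPM at 0.5 h, and its change of 1.15 ± 0.56 missed the threshold (edgeR, adjusted p = 0.0699). It was a called rise by DESeq2 (1.23, adjusted p = 0.0429), with only the Col-0 groups in the edgeR fit (1.15, 0.0462), with libraries unsummed (1.21, 0.0102), without 4 h replicate 2 (1.67, 0.0163) and on library totals alone (1.74, 0.00313). The glutaredoxin GRX480 and the salicylic acid receptor NPR3 went partly back, by -3.26 ± 0.64 (8.5e-06) and -2.09 ± 0.37 (8.7e-07). PR1, the classic late marker of salicylic acid, had 0 counts at 4 h and 1 count at 0.5 h.

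Hormone and nutrient genes gave smaller or mixed responses. Of 37 abscisic acid and drought genes, 11 rose and 5 fell at 4 h against 0.5 h (median 0.86). HAI2 and ABI2, phosphatases that restrain abscisic acid signalling, rose by 6.12 ± 1.12 (edgeR, adjusted p = 2.3e-06) and 3.00 ± 0.57 (4.9e-06), while CYP707A3, which degrades abscisic acid, fell by 4.36 ± 0.64 (1.0e-08) after an early rise. HAI2 gave 5.28 without 4 h replicate 1 and 7.14 without 0.5 h replicate 3. The ethylene list had 4 rises and 4 falls among 27, and the sign of its median depended on the scaling, at -0.02 with TMM, 0.05 with relative log expression (RLE) factors or by DESeq2 and 0.58 on library totals alone. The sugar and nitrogen list had 10 rises and 9 falls among 41 (median -0.22, or 0.38 on library totals alone). As shares these are 24.4% and 22%, with 14.8% and 14.8% for ethylene and 29.7% and 13.5% for abscisic acid. Among all genes tested 17% rose and 24.6% fell. Ethylene calls and falls of the sugar and nitrogen list were thus no more frequent than among all genes. GLN1;1, a cytosolic glutamine synthetase, had 4980, 2150 and 2230 CPM at 4 h against 75, 33 and 28.1 CPM at 0.5 h, while GLN2, the plastid form, had 299, 429 and 568 CPM against 1770, 2140 and 2540 CPM. NRT2.6, a nitrate transporter gene, had a replicate far above the other two, with 1630, 124 and 240 CPM at 4 h against 7.4, 4.1 and 2.12 CPM at 0.5 h (7.18 on the log2 scale, or 5.42 without that replicate). GLN1;1 rose by 6.10, or 6.82 without 0.5 h replicate 1. GBSS1, which makes amylose starch, fell by 6.13 ± 0.72 (6.8e-12), to 0.879, 2.47 and 2.6 CPM at 4 h.

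Some auxin and other growth hormone genes fell early, and most of those stayed low or fell on. Of 47 genes of auxin, cytokinin, gibberellin and brassinosteroid, 17 (36.2%, against 8.6% of all genes) had fallen and 5 had risen at 0.5 h, and 27 were below T0 at 4 h. At 4 h against 0.5 h 16 fell and 5 rose (median -0.75). Of the 17 early falls, 11 stayed low and 4 fell further, and 10 more were new falls. AFB3, an auxin receptor, had 57, 57.1 and 46.3 CPM at T0, 5.07, 5.71 and 4.9 CPM at 0.5 h, and 12.9, 17.7 and 16.6 CPM at 4 h, among the few early falls that came partly back (1.59 ± 0.41, edgeR, adjusted p = 6.7e-04). HAT2, an auxin-induced homeobox gene, had 70.7, 75.8 and 46.9 CPM at T0, 8.14, 2.17 and 2.92 CPM at 0.5 h, and 43.9, 26.7 and 25.7 CPM at 4 h, and counts as fully back (2.87, or 3.82 without 0.5 h replicate 1). IAA17, an auxin repressor, was a new fall (-3.98 ± 0.64, 1.4e-07). GH3.2, GH3.5 and GH3.6, which conjugate auxin to amino acids, were new rises of 7.07 ± 0.89 (8.9e-11), 2.35 ± 0.52 (6.5e-05) and 3.46 ± 0.59 (5.5e-07), and GH3.2 gave 9.20 without 0.5 h replicate 3. COL2, a CONSTANS relative of the class that fell further, had 82.6, 198 and 148 CPM at T0, 9.62, 23.9 and 10.7 CPM at 0.5 h, and 1.68, 4.15 and 3.23 CPM at 4 h. Its change of -2.29 ± 0.69 (0.00318) lost its call without 0.5 h replicate 2, at -1.58.

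The most uniform of the gene lists was photosynthesis, with almost no call at 0.5 h and a fall of nearly every gene at 4 h. Of 51 genes of light harvesting, photosystems and carbon fixation, 50 fell and 0 rose at 4 h against 0.5 h, with a median of -2.87, whereas 1 had risen and 0 had fallen at 0.5 h against T0. Of the 50, 49 were new falls and LHCB4.3 was an early rise that went back. RBCS1B, a small subunit of Rubisco, had 413, 681 and 707 CPM at T0, 694, 1100 and 1300 CPM at 0.5 h, and 10.5, 13.1 and 9.68 CPM at 4 h. RBCS1A, another small subunit gene, had 3140, 2380 and 3480 CPM at 4 h against 17500, 18100 and 22100 CPM at 0.5 h. The changes were -6.54 ± 1.22 for RBCS1B (edgeR, adjusted p = 3.2e-06) and -2.68 ± 0.62 for RBCS1A (1.5e-04), though Rubisco small subunit genes are close copies whose reads may be split. Chlorophyll synthesis followed, with 20 of 30 falling and 0 rising (median -2.13). CHLH, a subunit of magnesium chelatase, had 3200, 3260 and 3510 CPM at T0, 3770, 3500 and 2880 CPM at 0.5 h, and 252, 158 and 282 CPM at 4 h. 

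Clock genes moved in both directions. Of 29 tested, 9 rose and 9 fell at 4 h against 0.5 h, among them 7 new rises and 9 new falls. The rises and the falls are 31% each, against 17% and 24.6% of all genes. CCA1 and LHY, factors whose transcripts are known to peak at dawn, had 10.7, 32.2 and 43.5 CPM and 2.8, 13.5 and 12.8 CPM at 4 h, against 339, 520 and 344 CPM and 341, 712 and 567 CPM at 0.5 h. The log2 fold changes were -3.80 ± 0.80 (edgeR, adjusted p = 3.4e-05) and -5.80 ± 0.88 (3.1e-08). PRR5, a repressor known to peak later in the day, had 64.7, 75.9 and 49.3 CPM at 4 h against 0.634, 0.563 and 0.928 CPM at 0.5 h, and FKF1, an afternoon blue light receptor, had 649 counts against 1. The clock hours of sampling are not in the labels, and their part in any of the changes was not tested. Cell division genes gave 11 falls and 0 rises among 24 (median -1.14), at low levels such as 0.48, 0.301 and 0.52 CPM for CDKB2;1, a mitotic kinase, at 4 h against 1.48, 1.69 and 2.78 CPM at 0.5 h.

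**Figure D3:**
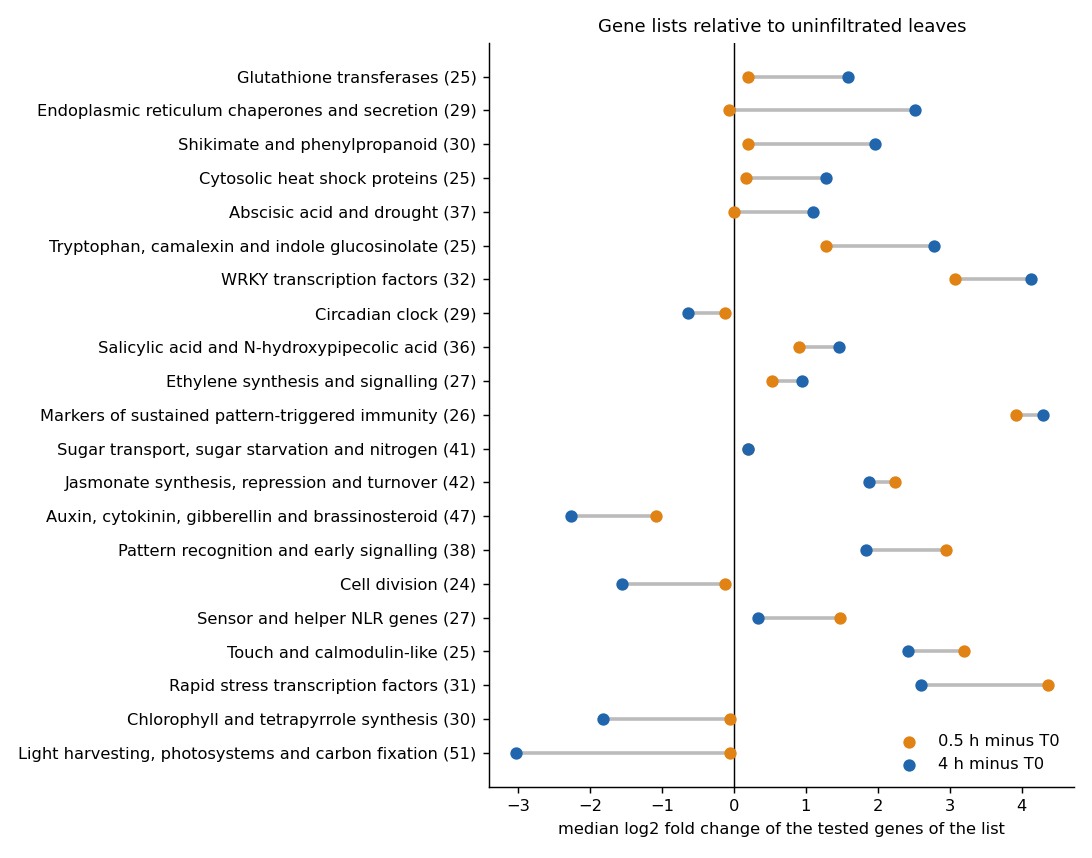
Median log2 fold change relative to T0 of each gene list (rows) at 0.5 h and at 4 h in Col-0, ordered by the difference between the times. Endoplasmic reticulum, glutathione transferase and phenylpropanoid genes lie near 0 at 0.5 h and high at 4 h, rapid transcription factors are at 4.36 at 0.5 h and 2.6 at 4 h, and photosynthesis is at -0.05 at 0.5 h and -3.03 at 4 h.

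Markers of leaf cell types did not move together. The 6 mesophyll markers, which are themselves photosynthesis genes, all fell, with a summed level of 4790 to 6900 CPM at 4 h against 49600 to 50900 CPM at 0.5 h. Guard cell markers summed to 1720 to 1940 CPM at 4 h and 3290 to 4350 CPM at 0.5 h, with 1 rise and 3 falls among 10. The falls are 30%, against 24.6% of all genes, and the median was -0.38, or 0.22 on library totals alone. The falls of HT1, TGG1 and TGG2 each lost the call in several alternatives. Vascular markers summed to 557 to 844 CPM against 958 to 1280 CPM, with 1 rise and 6 falls among 12. Epidermis and trichome markers summed to 952 to 1210 CPM against 849 to 1050 CPM, with 3 rises and 3 falls among 10. The epidermis falls of PDF1, ATML1 and PDF2 and the rise of CER1 also lost the call in at least 1 alternative. So did the vascular falls of XCP1, IRX3 and SWEET11. SULTR1;3 was at 0 counts at both times, and ETC1 and GL1 were too low to test. The part of a changed share of cell types in the results above was not tested.

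The genotype labels of the mutants were checked first at the targeted genes. ADR1-L2 averaged 29.4 ± 1.29 CPM in adr1 triple and 28 ± 3.43 CPM in helperless leaves at 4 h, against 67.4 ± 13.8 CPM in Col-0 leaves (SD, n = 3 each). ADR1 and ADR1-L1 transcripts were instead higher in these mutants, with ADR1 at 845 CPM in adr1 triple and 803 CPM in helperless against 8.36 CPM in Col-0 at 4 h. NRG1.1 averaged 22.4 ± 2.19 CPM in nrg1.1 nrg1.2 and 28.5 ± 3.6 CPM in Col-0 leaves, so NRG1 transcript levels do not check that label.

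The time course of Col-0 was seen again in all 3 mutants. At 4 h against 0.5 h, 3122 genes rose (15.9%) and 4880 fell (24.8%) in nrg1.1 nrg1.2, 2902 rose (14.7%) and 4501 fell (22.9%) in adr1 triple, and 3043 rose (15.5%) and 4199 fell (21.3%) in helperless. Of the 657 genes that went fully back in Col-0, 91.5% were called down in nrg1.1 nrg1.2, 85.4% in adr1 triple and 88.9% in helperless. Of the genes that rose further, 93.7%, 93.7% and 95.3% were called up, and of the new falls 92.1%, 88.8% and 80.1% were called down. No gene of these classes was called the opposite way in a mutant. Of the early falls that fell further, 82.7%, 74.4% and 54.9% were called down, and of those that went fully back, 75.6%, 72.6% and 74% were called up. The Col-0 classes were chosen on Col-0 values, so these shares say how often the mutants, which share no library with Col-0, met the same call. FRK1 rose by 9.12, 8.86 and 10.18 on the log2 scale in nrg1.1 nrg1.2, in adr1 triple and in helperless, against 9.86 in Col-0, and LOX4 fell by 4.68, 4.33 and 4.68 in the same order, against 4.97 in Col-0.

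A test of the difference itself called no gene for a 4 h against 0.5 h change that differed between a mutant and Col-0. The edgeR interaction called 0 of 19687 genes (0%) in nrg1.1 nrg1.2, in adr1 triple and in helperless, where 166, 243 and 230 genes (0.843%, 1.23% and 1.17%) had an unadjusted p below 0.05. Evenly spread p-values would put a share of 0.05 of the genes there, so the test was conservative. DESeq2 called 1, 0 and 0. The 1 gene was PR1 (DESeq2, adjusted p = 0.0328), with 0 counts at 4 h and 1 count at 0.5 h in Col-0, too few for a fold. Without the libraries elsewhere in the series that go against their labels, 1 gene was called in adr1 triple, and this was ADR1-L2 (difference of 2.04 ± 0.39 on the log2 scale, edgeR adjusted p = 0.0132), a gene mutated in that line. A count of 0 does not show that the genotypes act alike, since the test was conservative and the interaction adds the errors of 4 groups.

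**Figure D4:**
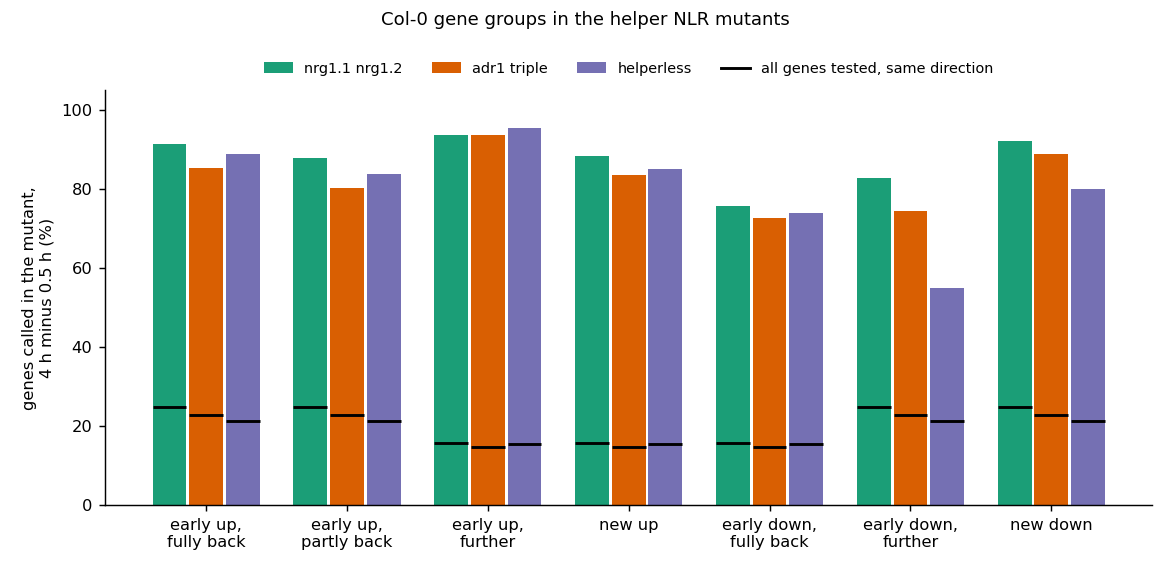
Share of the genes of each Col-0 class (percent, vertical axis) that were called in the same direction at 4 h against 0.5 h in nrg1.1 nrg1.2, in adr1 triple and in helperless, with a black line for the share among all tested genes. Genes fully back lie at 85.4% to 91.5% and genes that rose further at 93.7% to 95.3%, while early falls that fell further reach only 54.9% in helperless.

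The share of genes with a given short sequence upstream is set out by class as a description. In windows from 250 bases before to 50 bases after the annotated start of 19575 genes, CGCGTT, the core of the rapid stress response element, was found on either strand in 3.9%. It was in 12% of the windows of fully back genes, 15.1% of partly back and 8.74% of stayed, but in 5.51% of those that rose further and 2.53% of new rises. TTGACC or TTGACT, the W-box that WRKY factors bind, was in 33.2% of all windows. Here the order was different, with 43% for fully back, 54.3% for partly back, 49% for stayed, 60.2% for further and 41.5% for new rises, against 26.3% for new falls. AAAATATCT, the evening element of clock-controlled genes, was in 3.05% of all windows and 5.42% of those of new rises, with 4.88% for early falls fully back and 2.01% for new falls. GATAAG, the I-box core of light-regulated genes, was in 14.9% of all windows, 17.7% of those of new falls and 19.1% of those of early falls that went fully back, a class that rose at 4 h. AAACCCTA, an element of genes for ribosome proteins, was in 5.48% of all windows and 1.44% of those of early rises partly back, against 7.32% for early falls fully back. The classes also differ in other ways, and no test of these shares was made.

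**Figure D5:**
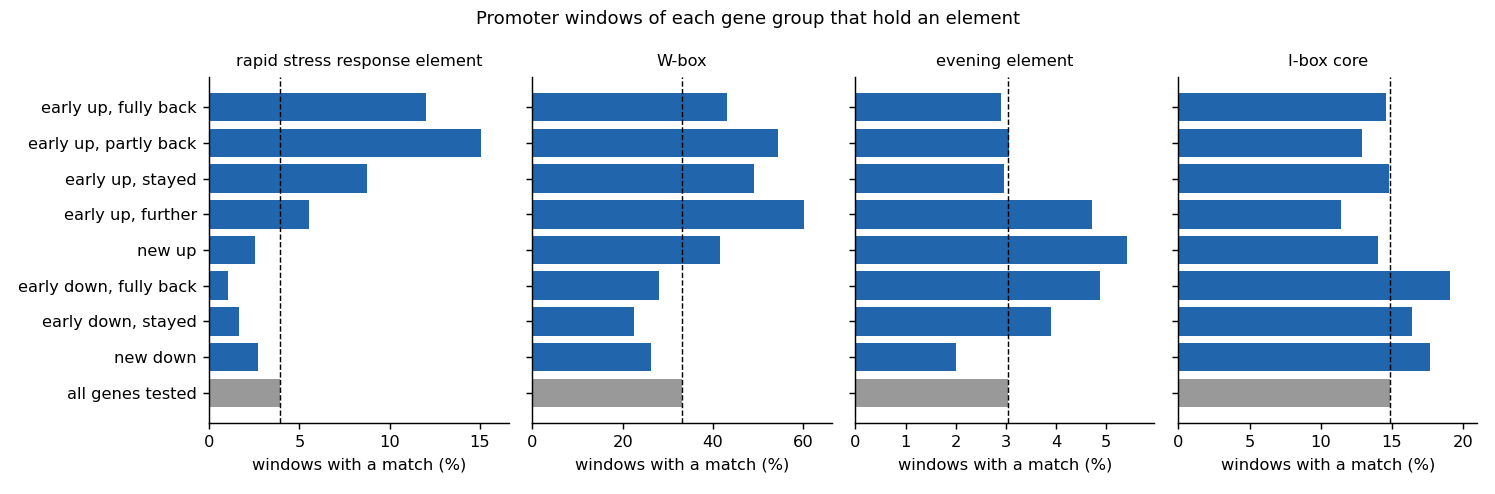
Percent of upstream windows that hold each of 4 short sequences, by class of time course in Col-0, with a dashed line for all genes. The rapid stress response core stands at 12% to 15.1% in early rises that went back and at 2.53% in new rises, while the W-box reaches 60.2% in genes that rose further.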

How the data were processed

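The authors deposited raw read counts per gene for 305 libraries. Per the submitters' processing notes, reads were checked with FastQC 0.11.7, trimmed with Trimmomatic 0.36, aligned to TAIR10 with HISAT2 2.1.0 and counted with featureCounts from Subread. Per the labels' protocols, mRNA was captured on oligo(dT) beads and read as 50-base single-end reads. The strand setting is not given in the sources used here, so overlapping and antisense genes cannot be told apart.

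Libraries of the same group and replicate number were summed, which gave 52 groups and 156 replicates. Most replicates, and all those of Col-0 compared here, had 2 libraries. Some others rest on an unpaired library, a T0 replicate of adr1 triple among them. In Col-0 under EV the paired libraries differed by more than sampling noise, so they are not the same library deposited again. Their chi-square values, per degree of freedom, ran from 13.82 to 40.44 at 4 h and from 6.65 to 19.84 at 0.5 h. Libraries of different replicates gave 10.78 to 62.05 at 4 h and 25.23 to 44.89 at 0.5 h. At 4 h these ranges overlap, so the values there do not tell the pairs from other libraries of the group. Genes were filtered with filterByExpr, scaled by TMM and fitted in edgeR 4.0.16 (R 4.3.3) by the robust quasi-likelihood test, with all groups in the fit to share the estimate of the spread and no covariate. 19687 genes were tested. CPM were computed from these counts. Tests were run on simulated data first. Alternatives were DESeq2 1.42.0, other scalings and filters, the Col-0 groups alone, unsummed libraries, a replicate block and each replicate left out. Scaling by library totals was added after seeing the data. The deviations of same-numbered replicates correlated at 0.18, -0.00 and 0.11, and those of differently numbered ones at -0.18 to 0.12. The numbers were therefore not taken to pair the samples, though 3 replicates per time cannot exclude pairing.

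The 21 gene lists and 4 marker lists, 690 genes of which 675 were tested, were chosen with earlier results of these data known, and so was the comparison. Named genes are those with the largest change in each direction, in each class and in each list, with a mean of at least 20 CPM for the classes, plus reference genes of the response. ADR1-L2, PR1 and LHCB4.3 were given after their values were seen, and TT5, FLS1 and DFR were also named outside this rule. Of the 25320 gene identifiers, 24966 matched the RefSeq annotation (TAIR10.1) and 354 did not. Upstream windows were cut from the RefSeq TAIR10.1 genome at the annotated gene start. Figures were drawn with matplotlib 3.10.9.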

Additional observations from a re-analysis of the deposited data

How the results depend on the processing

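Of 218 genes named by rule, 199 passed the test, and of these 35 lost the call in at least 1 alternative and 0 reversed. No gene called in the report was called the opposite way in any alternative run. The numbers of replicates were not taken to pair the samples, though pairing was not excluded. With the replicate block 3432 genes rose and 4876 fell at 4 h against 0.5 h, and 8156 of the 8189 genes were called again. Leaving out each replicate in turn gave 3469 to 3923 rises and 3935 to 4348 falls. The classes were then 519 to 613 fully back, 462 to 533 partly back, 1007 to 1157 stayed, 214 to 259 further, 151 to 250 unplaced and 1853 to 2296 new among rises. Among falls they were 529 to 677 fully back, 19 to 29 partly back, 531 to 863 stayed, 47 to 118 further, 248 to 433 unplaced and 2639 to 2869 new. With only the Col-0 groups in the fit, early falls partly back numbered 51 and further 361, and with libraries unsummed 61 and 407. With no limit on the fold there were 5122 rises, 448 early rises further, 116 unplaced, 2992 new rises, 1058 early falls fully back and 62 partly back. With early genes from the mutants, 333 early rises were unplaced and 254 early falls went further. On library totals alone there were 6221 rises and 2960 falls, with 364 early rises fully back, 362 partly back and 130 unplaced. Early falls then numbered 2029 fully back, 80 partly back, 1661 stayed, 254 further and 879 unplaced, with 1871 new falls. The genotype difference in nrg1.1 nrg1.2 gave 1 gene by DESeq2, and that in adr1 triple gave 1 without the 10 contrary libraries. Apart from changes built into an alternative (fewer samples, another scale, no fold limit), the cause was not tested. Depth limits genes of a few counts, whose folds rest on a handful of reads.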
